A study of Mus musculus with 4 samples.

Results

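The variable segments of the T cell receptor beta chain (Trbv) were each followed in thymic invariant natural killer T (iNKT) cells of 2 mouse strains. All 35 genes whose symbol is Trbv followed by a digit were taken, of 32285 genes in the count tables. GENCODE vM21 annotates 22 of them as V genes and 13 as V pseudogenes, all on chromosome 6 of GRCm38. Cells that bound both CD3 antibody and the CD1d tetramer loaded with PBS57 were sorted from thymus on a FACSAria III, and 5' gene expression libraries (Chromium Next GEM, v2) were made from them. There were 4 libraries, BALB/c 1 and BALB/c 2 from BALB/c mice and B6 1 and B6 2 from B6 mice. No allele or treatment beyond the strain is named for either group, and the sources used here name neither the age and sex nor the number of mice behind a library. The p-values therefore measure the spread between libraries, which may be technical.

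A beta chain gene is made in the thymus by joining 1 V, 1 D and 1 J segment, so that a mature T cell usually carries a single productive V segment. iNKT cells share an almost fixed alpha chain, made of Trav11 and Traj18, which binds lipid held by CD1d. That alpha chain is known to pair with beta chains of a small set of V segments: the Trbv13 family (called Vbeta8 in the older literature), Trbv29 (Vbeta7) and Trbv1 (Vbeta2). The cells are selected as CD4+ CD8+ double-positive thymocytes, pass through an immature stage called iNKT0, and mature into iNKT1 cells, which depend on Tbx21 and make interferon gamma, iNKT2 cells, which make Il4, and iNKT17 cells, which make Il17a.

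The last 250 coding bases of the 3 Trbv13 segments are shown because the counts tell these near copies apart by few bases. They were taken from the GENCODE vM21 transcripts of GRCm38, a C57BL/6J reference, and capitals mark bases that differ from Trbv13-2 in the alignment.
Trbv13-2: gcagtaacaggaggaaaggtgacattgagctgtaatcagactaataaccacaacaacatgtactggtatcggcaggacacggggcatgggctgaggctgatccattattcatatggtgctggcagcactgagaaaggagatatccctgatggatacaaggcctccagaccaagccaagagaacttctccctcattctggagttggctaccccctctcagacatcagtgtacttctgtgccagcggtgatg
Trbv13-1: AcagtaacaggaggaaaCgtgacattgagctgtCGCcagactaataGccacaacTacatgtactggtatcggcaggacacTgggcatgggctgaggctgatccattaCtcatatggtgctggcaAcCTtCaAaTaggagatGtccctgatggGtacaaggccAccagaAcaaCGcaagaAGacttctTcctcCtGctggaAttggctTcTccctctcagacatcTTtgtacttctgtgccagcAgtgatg
Trbv13-3: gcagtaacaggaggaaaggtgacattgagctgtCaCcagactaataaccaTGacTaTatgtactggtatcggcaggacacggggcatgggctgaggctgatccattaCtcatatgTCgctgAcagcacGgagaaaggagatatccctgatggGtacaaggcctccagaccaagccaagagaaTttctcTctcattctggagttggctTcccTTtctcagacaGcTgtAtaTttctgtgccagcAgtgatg
Over 340 aligned positions of the whole coding parts Trbv13-2 was 90.6% identical to Trbv13-3 and 87.9% identical to Trbv13-1, and Trbv13-1 and Trbv13-3 were 85.3% identical. Trbv13-2 shared 62.1% of aligned positions with Trbv29 and 51.8% with Trbv1.

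The last 60 bases of the 5 segments most used here are shown because they lead into the junction with D and J. Capitals start at the codon of the conserved cysteine that opens the third complementarity-determining region.
Trbv13-2: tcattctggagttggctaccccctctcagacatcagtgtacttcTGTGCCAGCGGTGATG
Trbv13-1: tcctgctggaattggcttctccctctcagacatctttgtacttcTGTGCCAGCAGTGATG
Trbv13-3: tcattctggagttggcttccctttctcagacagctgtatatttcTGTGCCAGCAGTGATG
Trbv29: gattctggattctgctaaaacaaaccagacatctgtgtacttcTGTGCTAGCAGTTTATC
Trbv1: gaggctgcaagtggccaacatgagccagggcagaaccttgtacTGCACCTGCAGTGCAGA
The 3 Trbv13 segments end in the same bases from that codon on, apart from 1 base in Trbv13-2. Trbv29 and Trbv1 end differently from them and from each other. Trbv13-1 lies on the plus strand at chr6:41116007-41116468, Trbv13-2 at chr6:41121396-41121832, Trbv13-3 at chr6:41130147-41130585, Trbv29 at chr6:41271394-41271881 and Trbv1 at chr6:40891229-40891885.

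The libraries held 2038 to 9732 barcodes and 20406245 to 82904358 counts of unique molecular identifiers (UMIs), and B6 2 had the largest total. Per kept cell the median was 11003.5, 9131, 7016 and 6922.5 UMIs, in the order BALB/c 1 and 2, then B6 1 and 2, which holds for every set of 4 values here. After filtering, 1864, 1913, 2328 and 8790 cells were kept. Kept cells had a median of 14, 14, 10.5 and 10 Trbv UMIs. A segment was called for a cell when it was the most abundant Trbv segment, without a tie and with at least 2 UMIs, which gave 1733, 1799, 2102 and 7869 called cells, 13503 in all. The called segment held 90.3% to 92.0% of a library's Trbv UMIs in such cells, and 18.6% to 22.7% of called cells had at least 2 UMIs of another segment. In 41 cells of a cluster led by Cd74 and H2-Eb1 with Cd79a, which should make no Trbv message, 14.6% had a Trbv UMI and 1 cell was called, at a median of 12478 UMIs. Of 16212 distinct barcodes, 107 occurred in more than 1 library. Per the file headers, B6 2 was made with Cell Ranger 7.1.0 and the other libraries with 6.0.0. The Trbj segments had 3438 UMIs in B6 2 and 0 in each other library.

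In all kept cells 5 segments led in every library: Trbv13-2, Trbv29, Trbv13-1, Trbv1 and Trbv13-3. Trbv13-2 was called in 46.5%, 40.6%, 46.2% and 49.3% of called cells (mean 45.6% ± 3.64, SD, n = 4). It was the most used segment in each library, and BALB/c 2 was the lowest, with an exact 95% binomial interval of 38.3% to 42.9%. Such intervals cover counting error only. Trbv29 was called in 12.8%, 11.01%, 14.7% and 16.1% (mean 13.7% ± 2.22), lower in both BALB/c libraries than in both B6 libraries. Trbv13-1 was called in 12.4%, 12.6%, 11.2% and 11.9% (mean 12.02% ± 0.640), and the intervals of the 4 libraries overlapped. Trbv1 was called in 10.3%, 14.3%, 10.6% and 9.47% (mean 11.1% ± 2.14), with BALB/c 2 above the other 3 libraries, whose intervals overlapped. Trbv13-3 was called in 5.65%, 6.56%, 6.14% and 6.48% (mean 6.21% ± 0.412). The order of Trbv29, Trbv13-1 and Trbv1 was not the same in every library, and their ranges over libraries overlapped.

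**Figure D1:**
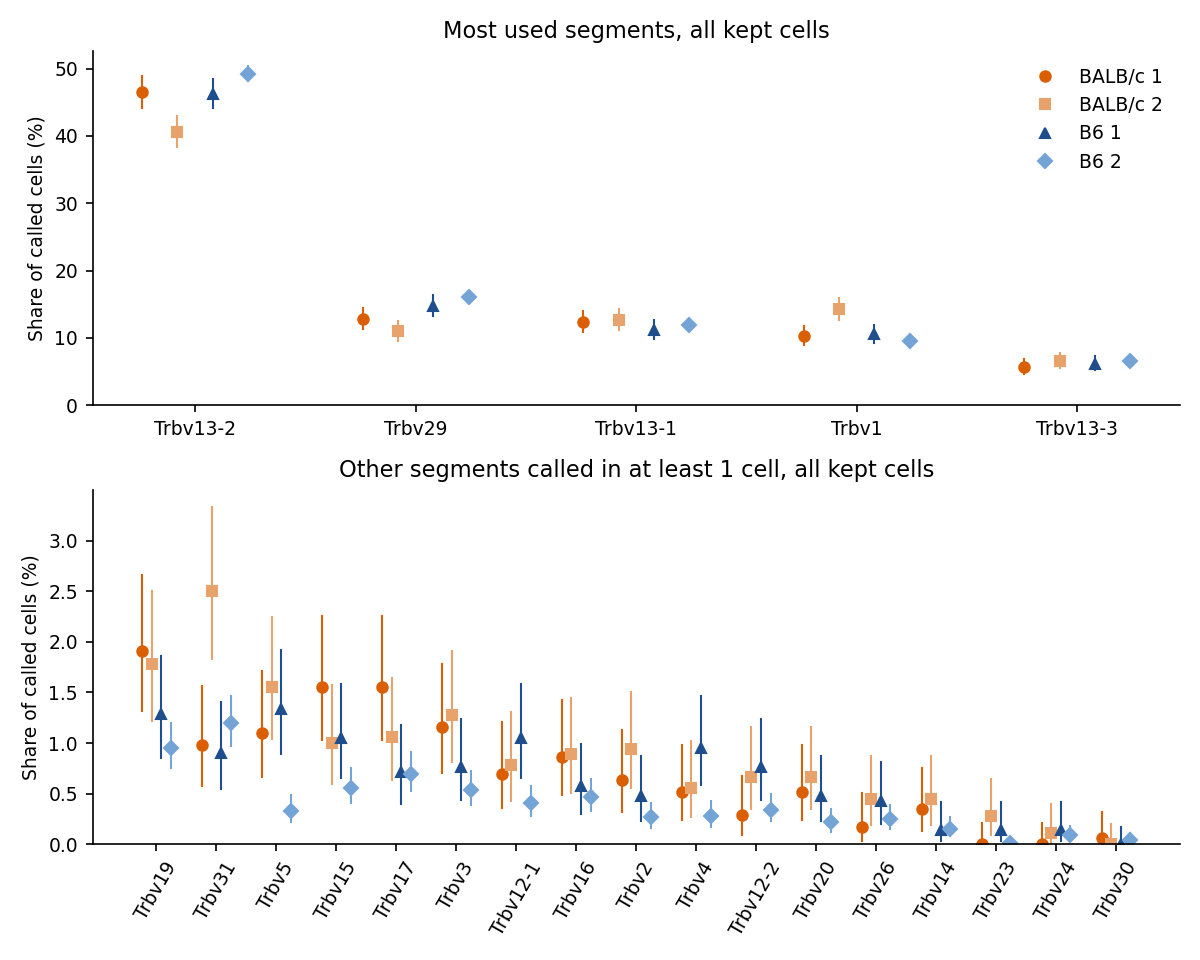
Share of called cells (%, y axis) that carried each Trbv segment (x axis) in all kept cells, by library (points, with exact 95% binomial intervals as bars). The upper panel holds the 5 most used segments, led by Trbv13-2 at 40.6% to 49.3%, and the lower panel, on its own scale, the other 17 segments called in at least 1 cell, none with a mean above 1.48%.

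The gap below Trbv13-3 was wide: the next segment, Trbv19, was called in 1.90%, 1.78%, 1.28% and 0.953% of cells. Trbv31, the only segment here that lies on the minus strand, followed with 0.981%, 2.50%, 0.904% and 1.19%, highest in BALB/c 2. In all, 15 segments had a mean share between 0.1% and 2%, and Trbv24 and Trbv30 were called in at least 1 cell with a mean under 0.1%. Trbv24 is annotated as a pseudogene and was called in 12 cells, and it was the only 1 of the 13 pseudogenes to be called. The other 13 segments were called in no cell. Of these, 9 had no UMI in any kept cell, and Trbv10, Trbv12-3, Trbv21 and Trbv22 had 2, 4, 39 and 19 UMIs in all. Trbv21 was the only annotated V gene called in no cell.

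Clusters of all kept cells, built without any Trbv gene, gave 280, 605, 1311 and 3157 iNKT1-like, 865, 695, 205 and 1270 iNKT2-like and 320, 184, 63 and 155 iNKT17-like cells. The summed CPM (UMIs of a gene scaled to a total of 1000000 UMIs) of the iNKT1 marker list were 8621 to 10352 in iNKT1-like cells. They were 147, 178, 859 and 872 in iNKT2-like cells, higher in both B6 libraries, and 156 to 415 in iNKT17-like cells. Those of the iNKT17 list were 2722 to 3122 in iNKT17-like cells and at most 95.7 elsewhere. The iNKT2 list separated less, with 2571 to 3162 in iNKT2-like, 1296 to 2176 in iNKT17-like and 492 to 664 in iNKT1-like cells. The strains filled different clusters of a subset: iNKT1-like cells lay mostly in 1 cluster led by Ccl5 and Gzma in BALB/c, in a cluster led by Xcl1 and Klra3 in B6 1, and in clusters led by Serpina3g and Lrrk1 or by Ifitm2 and Gzma in B6 2. iNKT2-like cells lay mostly in a cluster led by Izumo1r and Ccr10 in BALB/c and B6 1, and in a cluster led by Csf1 and Adh1 in B6 2. In B6 2, 2911 kept cells lay in clusters that could not be named.

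Trbv29 was used most in iNKT2-like cells and least in iNKT17-like cells in every library. It was carried by 10.98%, 11.4%, 15.04% and 14.8% of iNKT1-like cells, by 15.9%, 14.1%, 22.8% and 24.03% of iNKT2-like cells, and by 9.15%, 4.97%, 8.20% and 7.48% of iNKT17-like cells. The order was iNKT2-like above iNKT1-like above iNKT17-like in 4 of 4 libraries, and within a strain the shares of the 3 subsets did not overlap. The difference within libraries was 6.14 ± 2.89 percentage points (SD, n = 4) for iNKT2-like minus iNKT1-like and -11.7 ± 4.57 points for iNKT17-like minus iNKT2-like. For iNKT17-like minus iNKT1-like it was -5.61 ± 2.55 points, but -1.83 points in BALB/c 1 alone, where the exact intervals overlapped, and -0.366 points among cells with a Trav11 or Trav11d UMI. An exact two-sided test over sign permutations returned p = 0.125 for each of the 3, which 4 libraries cannot go below, and 0.268 after adjustment over the 15 differences tested. In UMI sums per library and subset, scaled by TMM factors, Trbv29 stood at 145, 125, 203 and 162 CPM in iNKT1-like, 224, 197, 402 and 347 CPM in iNKT2-like and 137, 86.2, 144 and 89.5 CPM in iNKT17-like cells. In such sums, fewer cells with a segment and less RNA of it per cell cannot be told apart.

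**Figure D2:**
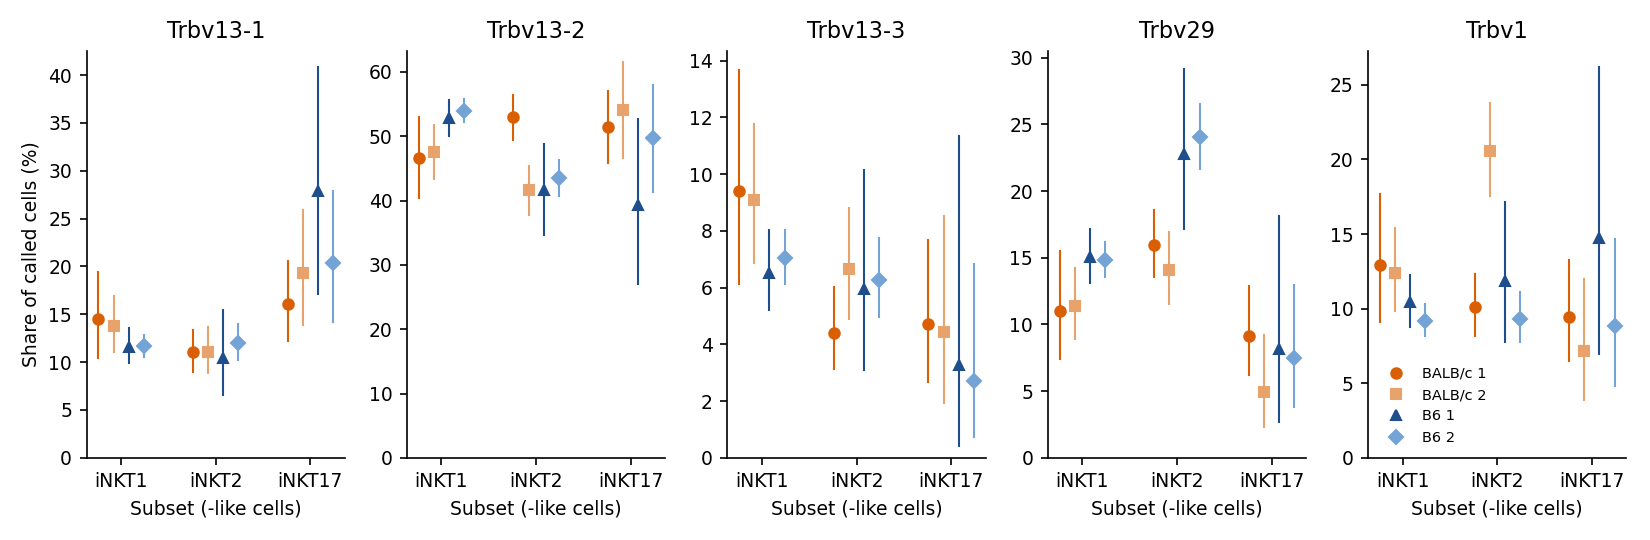
Share of called cells (%, y axis, a scale for each panel) that carried each of the 5 most used segments in the 3 subsets (x axis), by library (points, with exact 95% binomial intervals as bars). Trbv29 is highest in iNKT2-like cells in all 4 libraries, at 14.1% to 24.03%, Trbv13-1 is highest in iNKT17-like cells, at 16.1% to 27.9%, and the B6 1 intervals are the widest in iNKT17-like cells, with 61 called cells.

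Trbv13-1 was used most in iNKT17-like cells. It was carried by 16.1%, 19.3%, 27.9% and 20.4% of them, against 14.5%, 13.8%, 11.6% and 11.6% of iNKT1-like and 11.1%, 11.1%, 10.4% and 12.01% of iNKT2-like cells. The iNKT17-like share was the highest in 4 of 4 libraries, and the gap was smallest in BALB/c 1. The iNKT17-like share exceeded the iNKT1-like share by 8.03 ± 6.22 points and the iNKT2-like share by 9.79 ± 5.35 points (SD, n = 4, exact sign permutation p = 0.125 each). B6 1 had the largest difference from iNKT1-like cells, 16.3 points, with 17 of its 61 called iNKT17-like cells. Without B6 1 the mean difference from iNKT1-like cells was 5.29 points. Among cells with a Trav11 or Trav11d UMI the differences from iNKT1-like and iNKT2-like cells were 3.15 and 3.58 points.

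Trbv13-3 was used most in iNKT1-like cells. It was carried by 9.41%, 9.09%, 6.52% and 7.03% of iNKT1-like cells, by 4.40%, 6.66%, 5.94% and 6.25% of iNKT2-like cells and by 4.73%, 4.42%, 3.28% and 2.72% of iNKT17-like cells. The iNKT1-like share was the highest in 4 of 4 libraries, and the iNKT17-like share was the lowest in 3 of them, all but BALB/c 1. The difference of iNKT17-like minus iNKT1-like was -4.23 ± 0.677 points, the tightest of the 15, with exact sign permutation p = 0.125 (n = 4). Only 2 and 4 iNKT17-like cells of B6 1 and B6 2 carried Trbv13-3.

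Trbv13-2 was the most used segment in every subset and library, and its order among subsets was not the same in all libraries. It was carried by 46.7%, 47.6%, 52.8% and 54.0% of iNKT1-like, 52.9%, 41.6%, 41.6% and 43.4% of iNKT2-like and 51.4%, 54.1%, 39.3% and 49.7% of iNKT17-like cells. iNKT2-like cells were below iNKT1-like cells in 3 libraries and above them in BALB/c 1. iNKT17-like cells were above iNKT1-like cells in both BALB/c libraries, by 4.75 and 6.59 points, and below them in both B6 libraries, with differences of -13.5 and -4.30 points.

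Trbv1 showed no order shared by the libraries. It was carried by 12.9%, 12.4%, 10.4% and 9.18% of iNKT1-like, 10.1%, 20.6%, 11.9% and 9.33% of iNKT2-like and 9.46%, 7.18%, 14.8% and 8.84% of iNKT17-like cells. The mean difference of iNKT2-like minus iNKT1-like, 1.73 ± 4.64 points, turned to -0.407 points without BALB/c 2 (exact sign permutation p = 0.625 over the 4 libraries). The 20.6% of BALB/c 2 stood apart from the other 3 libraries, with an interval of 17.6% to 23.8%.

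That share came from a part of the iNKT2-like cells of BALB/c 2. At a finer clustering, 94 of 241 called cells (39.0%, exact interval 32.8% to 45.5%) of a cluster led by Ccr10, Cntnap1, Sox13 and Rln3 carried Trbv1 in BALB/c 2. The same cluster held 30 of 331 (9.06%, interval 6.20% to 12.7%) in BALB/c 1, and under 20 called iNKT2-like cells in each B6 library. This cluster has 346, 255, 14 and 21 cells, so it is mainly of BALB/c. Of the marker lists, that of gamma-delta T cells ranked first in it, and the naming rule gives it that name and not iNKT2 at the finer clustering. Sox13 was the only member of that list among the 10 leading genes of the cluster. Without this cluster the shares of Trbv1 in iNKT2-like cells were 10.8%, 10.3%, 12.2% and 9.40%, with overlapping intervals. Over all iNKT2-like cells the summed CPM of the gamma-delta list was 794, 586, 383 and 370. Of its members, Trdv4 was not detected in these cells in any library, and Trdc was not detected in BALB/c 2. Whether the cells of this cluster are gamma-delta T cells was not tested. In the neighbouring cluster led by Il4, Il6ra and Izumo1r, which encode a cytokine, a cytokine receptor chain and a folate receptor family protein, the shares were 10.8% in BALB/c 2 and 10.9% in BALB/c 1. Junction sequences were not analysed here, so whether the 94 cells share a receptor was not tested.

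The count test gave the subset differences over all genes. edgeR's quasi-likelihood test on UMI sums, with the library as a block and Benjamini-Hochberg adjustment over 10407 genes, could test 17 of the 35 segments. Between iNKT2-like and iNKT1-like cells 3 of 17 passed at an adjusted p of 0.05, against 53.8% of all genes tested. Of the 3, 1 was higher and 2 were lower in iNKT2-like cells, beside 27.3% and 26.5% of all genes. Trbv29 rose in iNKT2-like cells (log2 fold change 0.84 ± 0.14, SE, adjusted p = 0.000339). Trbv13-2 fell by 0.37 ± 0.11 on the log2 scale (edgeR adjusted p = 0.0129). Trbv13-3 fell by 0.68 ± 0.21 (edgeR adjusted p = 0.0170), and that call was lost without BALB/c 2 (adjusted p = 0.105).

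Between iNKT17-like and iNKT1-like cells 8 of 17 segments passed, against 42.3% of all genes, with 6 higher and 2 lower in iNKT17-like cells against 21.5% and 20.9% of all genes. Trbv13-1 rose by 0.73 ± 0.11 (edgeR adjusted p = 0.000276), from 206, 222, 206 and 166 CPM to 292, 324, 426 and 282 CPM. Trbv13-3 fell by 1.15 ± 0.24 (edgeR adjusted p = 0.00255), from 147, 152, 111 and 92.7 CPM to 71.2, 64.5, 51.0 and 27.9 CPM. In both cases the levels of the subsets did not overlap. Trbv29 fell by 0.44 ± 0.15 (edgeR adjusted p = 0.0338), a call lost without BALB/c 2, B6 1 or B6 2 and in 2 other alternatives. Between iNKT17-like and iNKT2-like cells 8 of 17 passed, against 32.4% of all genes, with 7 higher and 1 lower against 15.3% and 17% of all genes. Trbv29 fell by 1.28 ± 0.15 (edgeR adjusted p = 5.20e-05) and Trbv13-1 rose by 0.77 ± 0.11 (adjusted p = 0.000263). Trbv13-2 rose by 0.44 ± 0.11 (edgeR adjusted p = 0.00882), a call lost with Trbv UMIs as the denominator, without BALB/c 2 and with cells classed by their highest marker score.

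**Figure D3:**
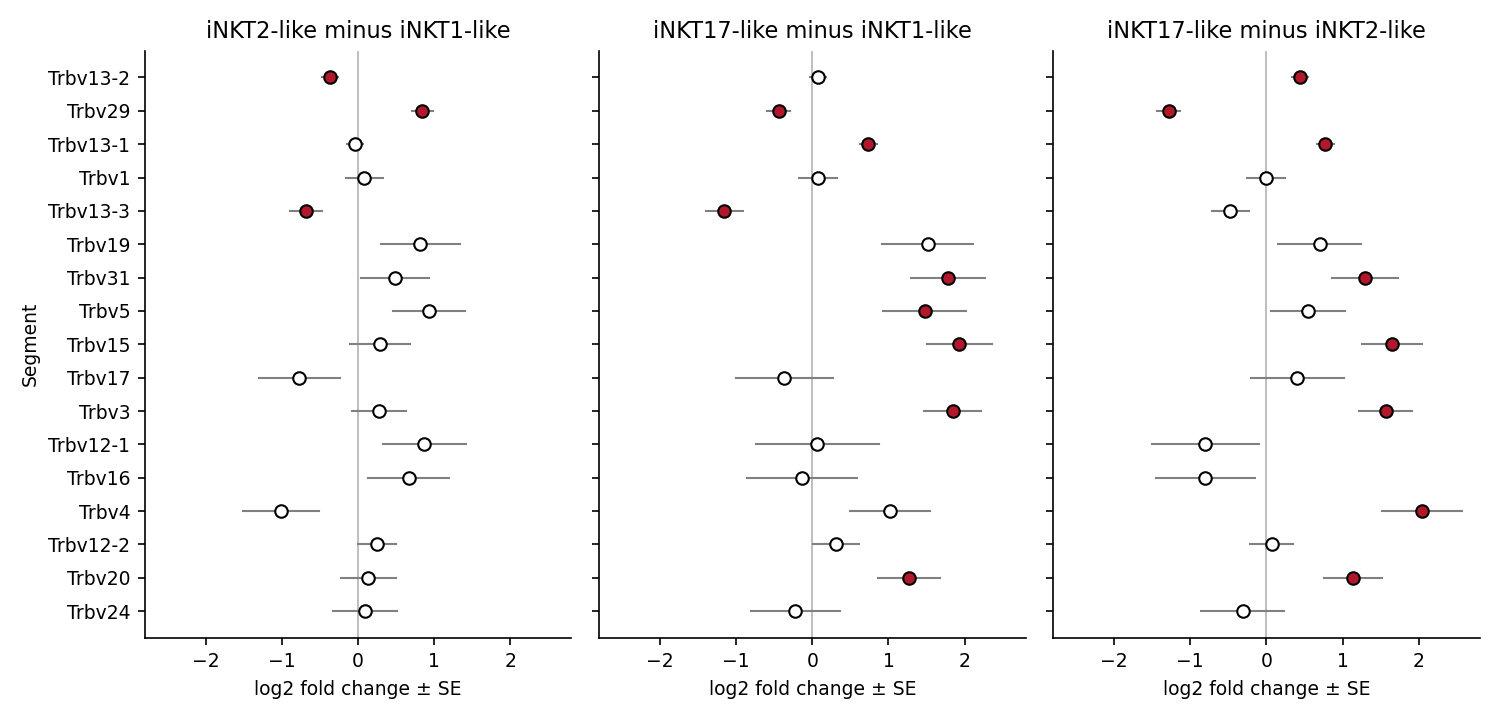
Log2 fold change (x axis, ± SE as bars) of the 17 tested Trbv segments (y axis, ordered by mean share) in 3 contrasts of UMI sums with the library as a block. Filled points passed an adjusted p of 0.05 over all genes: 3 segments for iNKT2-like minus iNKT1-like, 8 for iNKT17-like minus iNKT1-like and 8 for iNKT17-like minus iNKT2-like cells.

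The other calls in iNKT17-like cells were of little used segments and rested on few cells. Against iNKT1-like cells Trbv15 rose by 1.93 ± 0.42, Trbv3 by 1.84 ± 0.38, Trbv31 by 1.78 ± 0.49, Trbv5 by 1.48 ± 0.55 and Trbv20 by 1.27 ± 0.40 on the log2 scale (edgeR adjusted p from 0.00200 to 0.0486). Against iNKT2-like cells Trbv4 rose by 2.04 ± 0.53, Trbv15 by 1.65 ± 0.39, Trbv3 by 1.57 ± 0.35, Trbv31 by 1.29 ± 0.44 and Trbv20 by 1.14 ± 0.38 (edgeR adjusted p from 0.00470 to 0.0403). Of 706 called iNKT17-like cells, 14 carried Trbv15, 13 Trbv31, 7 Trbv5, 5 each Trbv3 and Trbv4, and 1 Trbv20. A single iNKT17-like cell held up to 56 of the 216 Trbv3 UMIs and 87 of the 540 Trbv15 UMIs. Against iNKT1-like cells the calls of Trbv3 and Trbv15 held in each of 11 alternatives, and those of Trbv5, Trbv20 and Trbv31 were lost without B6 1 and without B6 2. Against iNKT2-like cells the calls of Trbv4, Trbv20 and Trbv31 were lost without BALB/c 1, that of Trbv20 also without B6 2 and that of Trbv31 also without B6 1. Those of Trbv3 and Trbv15 were lost there with cells classed by their highest marker score.

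Segments other than the 5 most used ones were carried by 9.15%, 9.94%, 6.56% and 10.9% of iNKT17-like cells, against 5.49%, 5.77%, 3.58% and 3.34% of iNKT1-like cells. The iNKT17-like share was higher in 4 of 4 libraries, with intervals of 1.82% to 15.9% in B6 1 and 6.35% to 17.1% in B6 2. iNKT2-like cells were at 5.59%, 6.07%, 7.43% and 4.95%, between the other subsets in 3 libraries and above both in B6 1. Summed CPM of a gamma-delta T cell marker list was 639 to 784 in iNKT17-like and 254 to 303 in iNKT1-like cells, with Trdv4 at 0 in each library. Trdc was at 0 in iNKT17-like cells of both B6 libraries and in iNKT1-like cells of both BALB/c libraries. The part of gamma-delta T cells in these shares was not tested.

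Between strains the clearest difference was that of Trbv29. In iNKT2-like cells it was carried by 14.99% ± 1.33 (SD, n = 2) in BALB/c and 23.4% ± 0.886 (n = 2) in B6, a difference of -8.41 points that was -7.78 without B6 2. Without the cluster led by Ccr10, which is part of the iNKT2-like cells mainly in BALB/c, the shares were 14.5%, 13.8%, 23.9% and 23.7%, a difference of -9.69 points. In iNKT1-like cells it was carried by 11.2% ± 0.271 in BALB/c and 14.9% ± 0.134 in B6. Both B6 libraries were above both BALB/c libraries in each of these subsets, and in iNKT17-like cells the strains overlapped. An exact permutation test of 2 libraries against 2 cannot go below p = 0.333, the value it gave here, and all 20 strain differences in shares had an adjusted p of at least 0.606.

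The edgeR test called 1 of the 20 segments it could test in iNKT2-like cells, against 9.67% of 11691 genes. It was Trbv29, lower in BALB/c by a log2 fold change of -0.83 ± 0.12 (adjusted p = 0.0159). The call was lost without BALB/c 1 (adjusted p = 0.244) and without BALB/c 2 (adjusted p = 0.319), and it held with Trbv UMIs as the denominator, where the change was -0.56 (edgeR adjusted p = 0.0194). It also held without the cluster led by Ccr10, with a change of -0.78 (edgeR adjusted p = 0.0168). In iNKT17-like cells 1 of 15 tested segments passed, against 4.23% of 9387 genes: Trbv31, at 27.8 and 40.8 CPM in BALB/c and 68.8 and 71.7 CPM in B6 (log2 fold change -1.10 ± 0.21, edgeR adjusted p = 0.0256). The call rested on few cells. Trbv31 had 107, 98, 58 and 149 UMIs there, and a single iNKT17-like cell held up to 47 of the 412. In B6 1 only 4 called iNKT17-like cells carried any segment outside the 5 most used. That call was lost without BALB/c 1, with DESeq2 and with Trbv UMIs as the denominator. In iNKT1-like cells 0 of 17 passed in edgeR, against 3.52% of 10606 genes, and 0 were called by DESeq2 (2.31% of all genes). In all kept cells 0 of 21 passed in edgeR, against 7.28% of 12878 genes, and 2 were called by DESeq2 (7.96% of all genes). At an unadjusted p under 0.05 in edgeR there were 4 of the 21 segments, beside 3578 of the 12878 genes. There Trbv13-2 had a log2 fold change of -0.39 (edgeR adjusted p = 0.0595) and Trbv29 of -0.42 (adjusted p = 0.0849).

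The 3 Trbv13 segments did not share a strain difference. In iNKT1-like cells Trbv13-2 was carried by 47.1% ± 0.626 (SD, n = 2) in BALB/c and 53.4% ± 0.802 in B6, while Trbv13-1 was at 14.2% ± 0.494 and 11.6% ± 0.0165 and Trbv13-3 at 9.25% ± 0.227 and 6.78% ± 0.359. Trbv13-2 was thus lower, and Trbv13-1 and Trbv13-3 were higher, in both BALB/c libraries than in both B6 libraries, each with exact permutation p = 0.333. The sum of the 3 in iNKT1-like cells was nearly level, at 70.6%, 70.5%, 71.0% and 72.6%. In iNKT2-like cells the strains overlapped for each of the 3. Without the cluster led by Ccr10, Trbv13-2 there was at 51.0%, 46.2%, 40.4% and 43.4%. Trbv13-1 was then at 12.4%, 13.8%, 10.6% and 12.2%, with overlapping exact intervals. Both were thus higher in both BALB/c libraries than in both B6 libraries, while Trbv13-3, at 5.49%, 8.05%, 5.32% and 6.27%, still overlapped. In iNKT17-like cells Trbv13-2 was higher in BALB/c (52.8% ± 1.93 against 44.5% ± 7.29) and Trbv13-1 was lower (17.7% ± 2.30 against 24.1% ± 5.28). Trbv13-3 was also higher in both BALB/c libraries (4.58% ± 0.221 against 2.9999% ± 0.394), and the B6 values rest on 61 and 147 called cells, of which 2 and 4 carried Trbv13-3. The libraries also differ in depth and, for B6 2, in the software version in the file header, whose part was not tested.

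The edgeR interaction test asked whether the strain difference itself changed between subsets. It called 4 of 17 segments for iNKT2-like against iNKT1-like cells (10.7% of all genes), 4 of 17 for iNKT17-like against iNKT1-like (4.34%) and 5 of 17 for iNKT17-like against iNKT2-like (4.32%). Trbv13-3 gave the firmest of them: the step from iNKT1-like to iNKT2-like cells was lower in BALB/c than in B6 by 1.03 ± 0.12 on the log2 scale (edgeR adjusted p = 1.11e-06), and the call held in each of 11 alternatives. Its shares went from 9.41% and 9.09% to 4.40% and 6.66% in BALB/c, and from 6.52% and 7.03% to 5.94% and 6.25% in B6. Trbv13-2 was called for the step from iNKT1-like to iNKT17-like cells (0.49 ± 0.09, edgeR adjusted p = 0.00162), also in each of 11 alternatives. For Trbv29 the step from iNKT2-like to iNKT17-like cells was smaller in BALB/c (interaction 0.85 ± 0.14, edgeR adjusted p = 0.000542), a call lost without BALB/c 1 (adjusted p = 0.134) and without B6 2 (adjusted p = 0.138).

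Double-positive thymocyte-like and iNKT0-like cells used the segments more evenly. Double-positive thymocyte-like cells (160, 167, 163 and 298 cells, high in Rag1 and Cd8b1) carried a member of these 5 segments in 46.2%, 35.4%, 26.7% and 36.8% of called cells. iNKT0-like cells (80, 122, 84 and 182 cells, high in Itm2a and Lef1) did so in 53.2%, 57.8%, 50% and 62.2%, and iNKT1-like cells in 94.5%, 94.2%, 96.4% and 96.7%. In each library the share was lowest in double-positive thymocyte-like, higher in iNKT0-like and highest in iNKT1-like cells. Proliferating cells, at 77.3%, 65.5%, 74.1% and 84.9%, were a mixture of 2 clusters. In the one led by Tk1 and Tyms the share was 94.3%, 88.7%, 94.7% and 94.6%. In the one led by Knl1 and Mki67 (25, 36, 30 and 33 cells), whose second-ranked marker list was that of double-positive thymocytes, it was 36.4%, 29.4%, 32.1% and 38.7%. The effective number of segments, the inverse of the chance that a pair of called cells carry the same segment, was 14.5, 17.4, 17.6 and 16.8 in double-positive thymocyte-like, 11.04, 10.1, 14.98 and 8.29 in iNKT0-like and 3.65, 3.56, 3.03 and 2.94 in iNKT1-like cells. It was 3.04, 3.98, 3.995 and 3.66 in iNKT2-like and 3.24, 2.95, 3.99 and 3.33 in iNKT17-like cells. A UMI of Trav11, the V segment of the invariant alpha chain, or of Trav11d was found in 0%, 0%, 0% and 0.336% of double-positive thymocyte-like cells. Such a UMI was found in 7.5%, 3.28%, 1.19% and 3.30% of iNKT0-like cells and in 16.1%, 17.2%, 18.2% and 7.82% of iNKT1-like cells. The median depths were 1998.5 to 2773, 3855.5 to 4607.5 and 6478.5 to 7190 UMIs per cell. No value here shows that the double-positive thymocyte-like cells belong to the iNKT lineage. What part of the iNKT0-like cells belongs to it was not tested either, so the order of the classes need not follow that lineage.

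**Figure D4:**
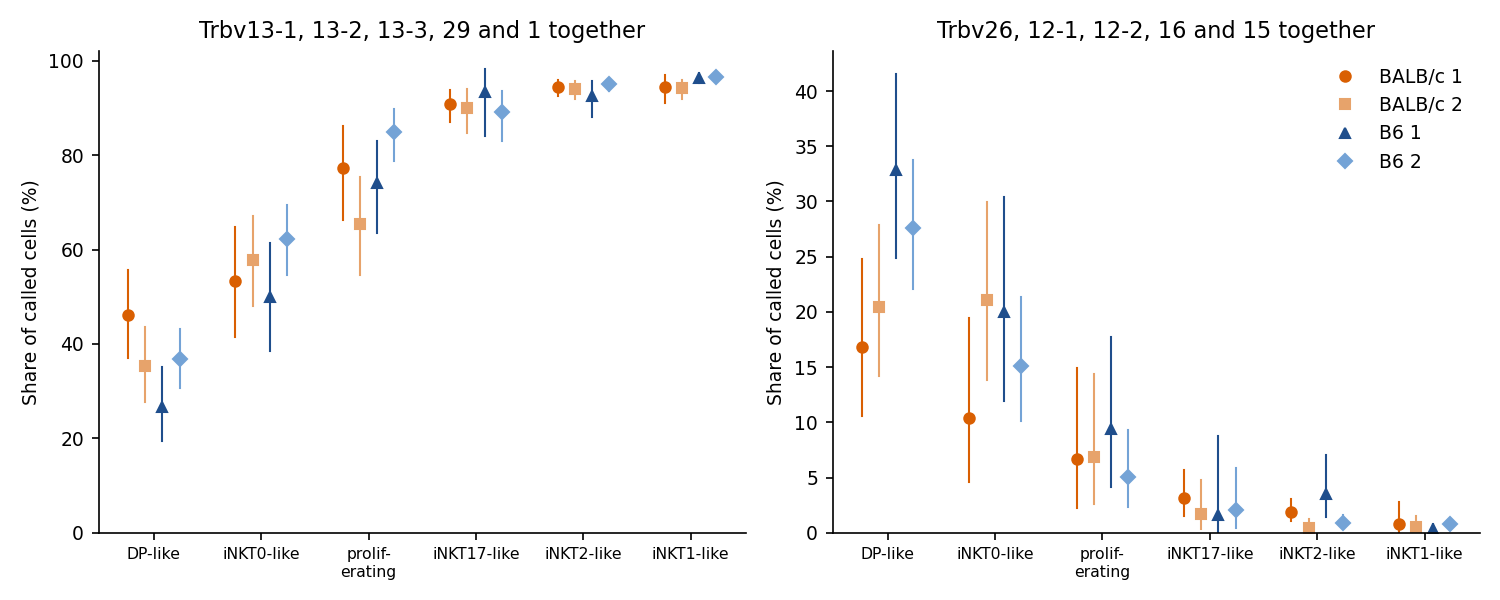
Share of called cells (%, y axis) that carried Trbv13-1, Trbv13-2, Trbv13-3, Trbv29 or Trbv1 (left) or Trbv26, Trbv12-1, Trbv12-2, Trbv16 or Trbv15 (right) in 6 classes of cells (x axis), by library (points, with exact 95% binomial intervals as bars). The left share goes from 26.7% to 46.2% in double-positive (DP) thymocyte-like cells to 94.2% to 96.7% in iNKT1-like cells, and the right share from 16.8% to 32.8% to at most 0.819%. Proliferating cells mix 2 clusters with unlike shares.

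The 5 segments differed by unlike amounts between double-positive thymocyte-like cells and the 3 mature subsets. These 5 are also the most used over all kept cells, which are mostly of the 3 subsets, so a higher share there is partly built in. Trbv13-2 was carried by 10.1%, 11.6%, 7.63% and 9.21% of double-positive thymocyte-like and 22.1%, 23.9%, 16.2% and 27.9% of iNKT0-like cells, against 47.9% ± 2.46 (SD, n = 4) for the mean of the 3 subsets. Its subset mean exceeded the double-positive-like share by 38.3 points, in 4 of 4 libraries (exact sign permutation p = 0.125). Trbv29 went from 5.88%, 4.08%, 2.29% and 5.02% to a subset mean of 13.2% ± 2.61, also higher in 4 of 4. Trbv13-1 went from 12.6%, 10.9%, 4.58% and 8.79% to 14.99% ± 1.16, and Trbv1 from 9.24%, 5.44%, 8.40% and 8.79% to 11.4% ± 1.86. Trbv13-3, at 8.40%, 3.40%, 3.82% and 5.02% in double-positive thymocyte-like cells, differed least from its subset mean of 5.87% ± 0.707 (exact sign permutation p = 0.625, n = 4). Of 22 called segments, these 5 had a higher share in iNKT1-like than in double-positive thymocyte-like cells in 4 of 4 libraries, and 13 had a lower share in 4 of 4.

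Among the 13 were the segments whose T cells are known to be deleted by endogenous retroviral superantigens in BALB/c mice, Trbv26, Trbv12-1, Trbv12-2, Trbv16 and Trbv15. Together they were carried by 16.8%, 20.4%, 32.8% and 27.6% of double-positive thymocyte-like cells, by 10.4%, 21.1%, 20% and 15.1% of iNKT0-like cells and by 0.784%, 0.524%, 0.318% and 0.819% of iNKT1-like cells. Both BALB/c libraries were below both B6 libraries in double-positive thymocyte-like cells, and the strains overlapped in iNKT0-like and iNKT1-like cells. In iNKT2-like cells the shares were 1.90%, 0.444%, 3.47% and 0.893%, and in iNKT17-like cells 3.15%, 1.66%, 1.64% and 2.04%. Trbv12-1 alone was carried by 5.88%, 6.12%, 11.5% and 7.53% of double-positive thymocyte-like and 0%, 0%, 0% and 0.0683% of iNKT1-like cells. With 255 called cells in BALB/c 1, a count of 0 allows a share of up to 1.18% there.

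The 5 segments differed in message per cell as well as in cells. The median number of UMIs of the called segment was 17, 16, 19 and 16 in iNKT1-like cells with Trbv1, and 7, 7, 9 and 9 in those with Trbv13-2. In iNKT2-like cells it was 32, 33, 35.5 and 30 for Trbv1, 22, 24, 27 and 23 for Trbv13-1 and 11, 12, 17 and 16 for Trbv13-2. Trbv1 had the highest median of the 5 in each of the 3 subsets in each library. Trbv13-2 had the lowest median in iNKT2-like cells in each library, and in iNKT1-like cells Trbv29 was the lowest, at 6, 6, 8 and 7. UMI shares and cell shares therefore differ: Trbv1 made up 16.99%, 22.6%, 16.05% and 14.1% of Trbv UMIs but 10.3%, 14.3%, 10.6% and 9.47% of called cells, while Trbv13-2 made up 34.8%, 29.3%, 36.4% and 41.5% of UMIs and 46.5%, 40.6%, 46.2% and 49.3% of cells.

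**Figure D5:**
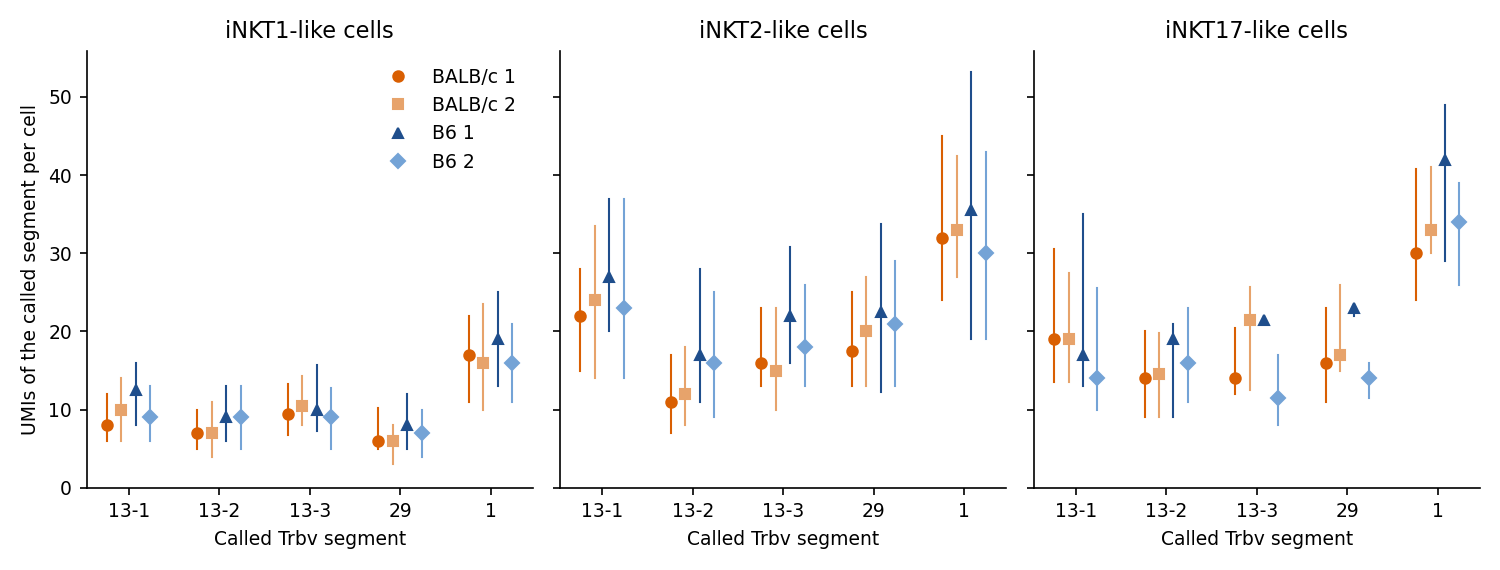
UMIs of the called segment per cell (y axis, median as a point and the middle 50% of cells as a bar) for cells called for each of 5 Trbv segments (x axis) in the 3 subsets, by library. Trbv1 cells have the highest median in every panel and library, 16 to 19 in iNKT1-like and 30 to 35.5 in iNKT2-like cells.

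Some of the other segments seen in a cell were neighbours or near copies of the called one. Trbv12-2, the V gene just upstream of Trbv13-2, took 2.88%, 2.83%, 2.23% and 2.63% of Trbv UMIs in Trbv13-2 cells and had a UMI in 30.02%, 29.2%, 22.2% and 25.6% of them. The sequences of Trbv12-2 and Trbv13-2 are 50% identical. In Trbv13-1 cells Trbv12-2 took 0%, 0.211%, 0.196% and 0.200% of Trbv UMIs, and Trbv12-1, the V gene upstream of Trbv13-1, took 0.0855%, 0.169%, 0.294% and 0.271%. Trbv13-2 took 4.26%, 5.28%, 5.42% and 8.07% of Trbv UMIs in Trbv13-3 cells, to which it is 90.6% identical, and 0.321%, 1.92%, 1.54% and 2.50% in Trbv13-1 cells. In cells of the unlike segments Trbv29 and Trbv1 it took 1.04%, 0.960%, 0.849% and 2.19%, and 0.863%, 0.409%, 1.19% and 1.96%. The Trbv13-3 cells lay above these values in each library, while the Trbv13-1 cells lay below them in BALB/c 1 and above them in the other 3. The reverse was small: Trbv13-3 took 0.131%, 0.310%, 0.316% and 0.302% in Trbv13-2 cells. The sources used here do not say how reads that match several segments were counted. These percentages set no bound on the resulting error, so the split among the Trbv13 segments is uncertain to an unknown degree.

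Other genes of the receptor were tested beside the segments. Of a list of 30 genes (constant, D and J segments of the beta chain, parts of the invariant alpha chain, CD3 chains and recombination genes) 9 could be tested between subsets. Between iNKT2-like and iNKT1-like cells 3 rose and 5 fell in edgeR, beside 53.8% of all genes called: the beta constant genes Trbc2 (0.74 ± 0.05) and Trbc1 (0.90 ± 0.06) rose, and the alpha chain genes Traj18 (-0.87 ± 0.08) and Trac (-0.53 ± 0.06) fell. Between iNKT17-like and iNKT1-like cells 3 rose and 6 fell (42.3% of all genes), and between iNKT17-like and iNKT2-like cells 1 rose and 3 fell (32.4%). Between strains in all kept cells 0 of 13 passed in edgeR (7.28% of all genes). At an unadjusted p under 0.05 there were 3 of the 13, beside 3578 of 12878 genes. In iNKT2-like cells 1 of 10 passed (9.67% of all genes): Cd247 was higher in BALB/c (1.16 ± 0.17, edgeR adjusted p = 0.0176). The median fold of the 17 tested Trbv segments was 0.25 for iNKT2-like against iNKT1-like cells and 0.32 for iNKT17-like against iNKT1-like, beside 0.00 and -0.01 over all genes tested. For iNKT17-like against iNKT2-like cells it was 0.44, beside -0.02 over all genes. Trbc UMIs per kept cell were 11.95, 13.6, 7.75 and 3.54, lowest in B6 2, while Trbv UMIs per cell were 17.3, 18.5, 14.6 and 13.6. Their part in the strain comparisons was not tested.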

How the data were processed

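For each of the 4 libraries the authors deposited UMI counts by gene and barcode, as whole numbers without normalization. Libraries were made with a 5' kit, per the labels' protocols. Cell Ranger 6.0.0 made 3 of the matrices and 7.1.0 that of B6 2, per the file headers, while the submitters' processing notes give Cell Ranger 7.1.0 and mm10 for all 4. The sources used here do not say whether reads in introns count.

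Barcodes with at least 500 genes, at least 1000 UMIs and at most 10% of UMIs from mitochondrial genes were kept. Those with the highest Scrublet scores, 0.8% per 1000 barcodes (33, 34, 50 and 758 barcodes), were taken out as likely doublets. Kept cells of all libraries were clustered together with scanpy 1.11.5 and leidenalg 0.10.2 (2000 variable genes, 30 principal components, 15 neighbours, resolution 1). The variable genes held no cell cycle, histone, ribosomal protein, mitochondrial or sex marker gene, and none of the T cell receptor, immunoglobulin, H2 and Klra families. A cluster was named from marker lists where its mean log2 fold within libraries with at least 10 of its cells was at least 0.3, with at least 40% of the markers, and at least 3, above 0.5. Klrb1c and Ly6c2 were skipped. A cluster stayed unnamed where another class had as many markers among its 10 leading genes, or where its UMIs were low and its own markers were absent there. This scoring rule was chosen after the clusters had been seen, in place of folds over all cells and of a minimum of 20 cells.

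Shares were taken over called cells per library and compared between strains by an exact permutation test and between subsets by an exact sign permutation test, both two-sided (scipy 1.17.1, Python 3.11.15). UMI sums per library and class were tested with edgeR 4.0.16 (quasi-likelihood, TMM, filterByExpr, R 4.3.3), and p-values were adjusted over all tested genes (Benjamini-Hochberg). DESeq2 1.42.0 was an alternative, and the scripts for tests across genes were tested on simulated data. Identities come from global alignments (biopython 1.88).

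Values per library were given in full for segments with a mean share of at least 2%, and for Trbv13-1, Trbv13-2, Trbv13-3, Trbv29 and Trbv1 always. Full values were also planned for the less used segments called by edgeR between strains or subsets. For these, fold changes and called cells summed over libraries are given, with values per library only in part. Segments linked to superantigens were given as a group, other receptor genes as counts with at most 4 of lowest p, and the remaining segments by range and count, with some named after their values were seen. The members and lists were chosen with earlier results of these data known. All 35 segments were matched by identifier to GENCODE vM21.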

Additional observations from a re-analysis of the deposited data

Results flagged for a closer look

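The difference in the share of Trbv13-2 between iNKT17-like and iNKT1-like cells had opposite signs in the strains, above 0 in both BALB/c libraries and below 0 in both B6 libraries. The strain means of that difference were 14.6 points apart, and the share difference was not tested. In edgeR the same interaction, BALB/c minus B6, was 0.49 on the log2 scale, and for iNKT17-like against iNKT2-like cells Trbv13-2 gave 0.49.

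The other interactions that passed in edgeR, on the log2 scale and as BALB/c minus B6, are values for which the strain difference changed between subsets. For iNKT2-like against iNKT1-like cells they were -0.56 for Trbv13-1, -1.03 for Trbv13-3, -0.45 for Trbv29 and -1.70 for Trbv31. For iNKT17-like against iNKT1-like cells they were -2.87 for Trbv5, -0.41 for Trbv13-1 and -1.95 for Trbv31. For iNKT17-like against iNKT2-like cells they were -1.43 for Trbv3, -2.38 for Trbv5, 1.39 for Trbv13-3 and 0.85 for Trbv29. The Trbv29 and Trbv13-1 calls against iNKT1-like cells were lost with Trbv UMIs as the denominator, and those of Trbv3, Trbv5 and Trbv31 were each lost without at least 1 of the libraries. Trbv13-2 against iNKT2-like cells lost its call without BALB/c 2, and Trbv13-3 against iNKT2-like cells without B6 2 (adjusted p = 0.0600 in edgeR).

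The Trbj segments had 3438 UMIs in kept cells of B6 2 and 0 in the other libraries, including B6 1 of the same strain. B6 2 is also the library whose file header gives Cell Ranger 7.1.0, and the part of the version was not tested.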

How the results depend on the processing

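Of 20 differences in share, 13 kept their sign in every alternative, and all 34 edgeR calls kept their direction, 10 of them past the threshold in every alternative. Thinning each cell to 4000 UMIs left out 279, 261, 450 and 1507 shallower cells and kept the sign of all 20, with Trbv29 at 7.73 points for iNKT2-like minus iNKT1-like cells. Weighting the 3 subsets equally turned the strain differences, BALB/c minus B6, of Trbv13-1 from 0.975 to -1.34 points, of Trbv13-2 from -4.21 to 2.24 and of Trbv13-3 from -0.202 to 1.16. Trbv13-3 also turned to 0.325 where the called segment had to hold at least 80% of Trbv UMIs, to 0.0247 without cells with 2 UMIs of another segment, and ranged from -0.654 to 0.250 with a library left out. Trbv1 ranged from -3.02 to 0.173 points for iNKT17-like minus iNKT1-like cells and from -4.84 to 0.580 for iNKT17-like minus iNKT2-like cells with a library left out. For iNKT2-like minus iNKT1-like cells it ranged from -0.407 to 3.25, and it was -0.748 with Leiden resolution 1.5 and -0.0255 with cells classed by their highest marker score. Trbv13-2 for iNKT17-like minus iNKT1-like cells ranged from -4.34 to 2.35 with a library left out and was 5.18 in cells with a Trav11 or Trav11d UMI. The strain fold change of Trbv1 in iNKT2-like cells, 0.52 on the log2 scale (edgeR adjusted p = 0.395), ranged from -0.0679 without BALB/c 2 to 0.934 without BALB/c 1, and was -0.0241 without the cluster led by Ccr10.

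Counts of segments called between strains depended most on the setting, and the share called of all genes tested, given after each count, moved too. In all kept cells (0, 7.28%) the count was 2 with DESeq2 (7.96%), 1 with the Trbv total as denominator (9.45%) and 0 to 9 with a library left out (0% without either BALB/c library, 37.7% without B6 1). In iNKT1-like cells (0, 3.52%) it was 4 with no filter (6.93%). In iNKT17-like cells (1, 4.23%) it was 7 with no filter (6.69%), 0 with DESeq2 (1.40%) and 0 with the Trbv total (1.98%). In iNKT2-like cells (1, 9.67%) it was 2 with no scaling factor (8.66%), 8 with no filter (14.8%) and 2 with the Trbv total (15.2%). Between subsets, iNKT17-like minus iNKT1-like (8, 42.3%) gave 4 to 7 with a library left out (34.0% to 37.2%). The contrast of iNKT17-like minus iNKT2-like (8, 32.4%) gave 5 with the highest marker score (28.95%). With a library left out it gave 6 to 8 (22.1% to 26.9%). For iNKT2-like minus iNKT1-like (3, 53.8%) the count was 5 with no filter (32.1%) and 3 throughout with a library left out (44.6% to 47.8%). Interactions for iNKT17-like minus iNKT1-like (4, 4.34%) gave 11 with no filter (3.16%), 2 with DESeq2 (1.32%) and 2 with the highest marker score (6.06%). Those for iNKT17-like minus iNKT2-like (5, 4.32%) gave 11 with no filter (2.90%), 3 with DESeq2 (1.35%) and 8 with Leiden resolution 1.5 (3.96%). Those for iNKT2-like minus iNKT1-like (4, 10.7%) gave 2 with DESeq2 (2.41%). The strain and interaction counts also changed with a library left out. In those fits a strain with a single library was taken to have the spread of the other, so their counts are not given. The cause of these changes was not tested.

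The libraries of the strains share only a replicate number. Deviations from the strain means of same-numbered libraries had r = -0.262 over 12878 genes. With the replicate block the strain count was 4 in iNKT17-like (5.58% of all genes) and 3 in iNKT2-like cells (11.6%). It stayed at 0 in iNKT1-like (4.21%) and in all kept cells (2.05%). The alternatives with the Trbv total, without cells with another segment and without the cluster led by Ccr10 were chosen after seeing the data. With cells classed by their highest marker score, 2580 kept cells (17.3%) lay within 0.1 of the next score. With 61 to 317 called iNKT17-like cells per library, counting error limits the shares of little used segments there.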
